A study of Mus musculus with 8 samples.

Results

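The secretory cells of the conducting airways make the proteins of the fluid and mucus that line the bronchi, and 10 genes of these cells were followed in mouse lung. They were Scgb1a1, Scgb3a1, Scgb3a2, Cyp2f2, Bpifa1, Bpifb1, Muc5b, Muc5ac, Reg3g and Pigr, chosen by symbol from 55416 gene identifiers, and all 10 passed the filter on low counts with which 18560 genes were tested. RNA-seq of lung tissue was analysed from 8 female C57BL/6J mice aged 6 to 8 weeks. The study asked how YW3-56, an inhibitor of the protein arginine deiminases, alters the response of the lung to the bacterial endotoxin LPS. The 3 control mice, numbered 1, 2 and 4, received the solvent DMSO into the tail vein and then saline into the peritoneum. The 3 LPS mice, numbered 1, 6 and 7, received 35 mg/kg LPS in saline, and the methods name no DMSO injection for them. The 2 dual-treated mice, numbered 2 and 5, received 10 mg/kg YW3-56 in DMSO 0.5 h before 35 mg/kg LPS. The solvent and the inhibitor therefore cannot be told apart between the dual-treatment group and the LPS group. By the same description, LPS and the absence of the solvent cannot be told apart between the LPS group and the control group. Lung tissue of one side was taken 24 h after LPS. By the methods 3 mice of each group were sequenced, but a figure legend of the paper and the labels both give 2 dual-treated mice. Total counts per library ran from 19061949 to 20908608.

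Club cells are dome-shaped secretory cells of the bronchioles, and secretoglobins are their most abundant secreted products. They also detoxify inhaled chemicals with cytochrome P450 enzymes and can renew themselves and the ciliated cells. When the airway is irritated or infected, secretory cells can turn to making gel-forming mucins, antimicrobial lectins and the receptor that carries antibodies into the airway lumen.

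Some libraries stood apart from the others of their group. LPS mice 6 and 7 held genes of squamous epithelium and skeletal muscle that the other libraries nearly lacked. The summed level of 12 squamous genes reached 797 CPM (counts relative to the library size after edgeR's TMM normalization) in mouse 6 and 2170 CPM in mouse 7. It was 1.60 CPM in LPS mouse 1 and at most 8.86 CPM in any control or dual-treated mouse. Krt13 had the most counts of them over all libraries, although in mouse 6 Krt4 had 293 CPM and Krt13 286 CPM. With LPS 9 of 11 tested squamous genes and 9 of 9 tested muscle genes rose. Without mouse 6 or mouse 7 alone only 5 squamous and 6 muscle genes passed the filter on low counts. The others passed it only through the mice in which they were high, so the share of 32.6% of all tested genes that rose is no measure for these lists. The 1 squamous gene that fell was Ivl, with 55, 48 and 61 counts in control mice and 6, 1 and 1 in LPS mice. Without mouse 6 or mouse 7 alone 3 of 5 squamous genes rose. Without both mice 0 of 5 squamous and 0 of 6 muscle genes that could still be tested rose in edgeR's test, and 2 of the 5 squamous genes fell. Krt4 had 0 counts in LPS mouse 1. The summed level of 10 muscle genes reached 500 CPM in mouse 6 and 1290 CPM in mouse 7, but 17.5 CPM in LPS mouse 1 and at most 19.8 CPM elsewhere. Acta1 was the most abundant of them in LPS mice 6 and 7. Dual-treated mouse 2 was rich in immunoglobulin transcripts, with 28511 counts of Ighm and 17178 of Igkc, where no other library passed 1855 and 2011. The part of these libraries in the results below was not tested beyond leaving them out.

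LPS raised 9 of the 10 genes and lowered 1, Cyp2f2. Among all tested genes 32.6% rose and 33.9% fell in this comparison. From LPS to dual treatment 9 of the 10 fell, where 27.4% of all tested genes fell. In edgeR's test 0 of them rose, where 31.7% of all genes rose, and 0 rose at an unadjusted p under 0.05 or with DESeq2. In dual-treated against control lungs 1 rose, where 9.13% of all tested genes rose, and 4 fell, where 7.02% fell. A gene was said to rise or fall when its adjusted p was under 0.05 in the quasi-likelihood test of edgeR, with p-values adjusted over all 18560 genes by the Benjamini-Hochberg method, and every adjusted p below comes from that test unless another is named. The median log2 fold change (log2FC) of the 10 genes was 1.43 with LPS, -0.47 in dual-treated against control lungs and -2.36 in dual-treated against LPS lungs. Over all tested genes the same medians were -0.01, 0.004 and 0.06. The comparisons share libraries and are not independent of each other. In whole lung tissue a change in the number of secretory cells and a change in the RNA that each of them holds cannot be told apart.

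**Figure D1:**
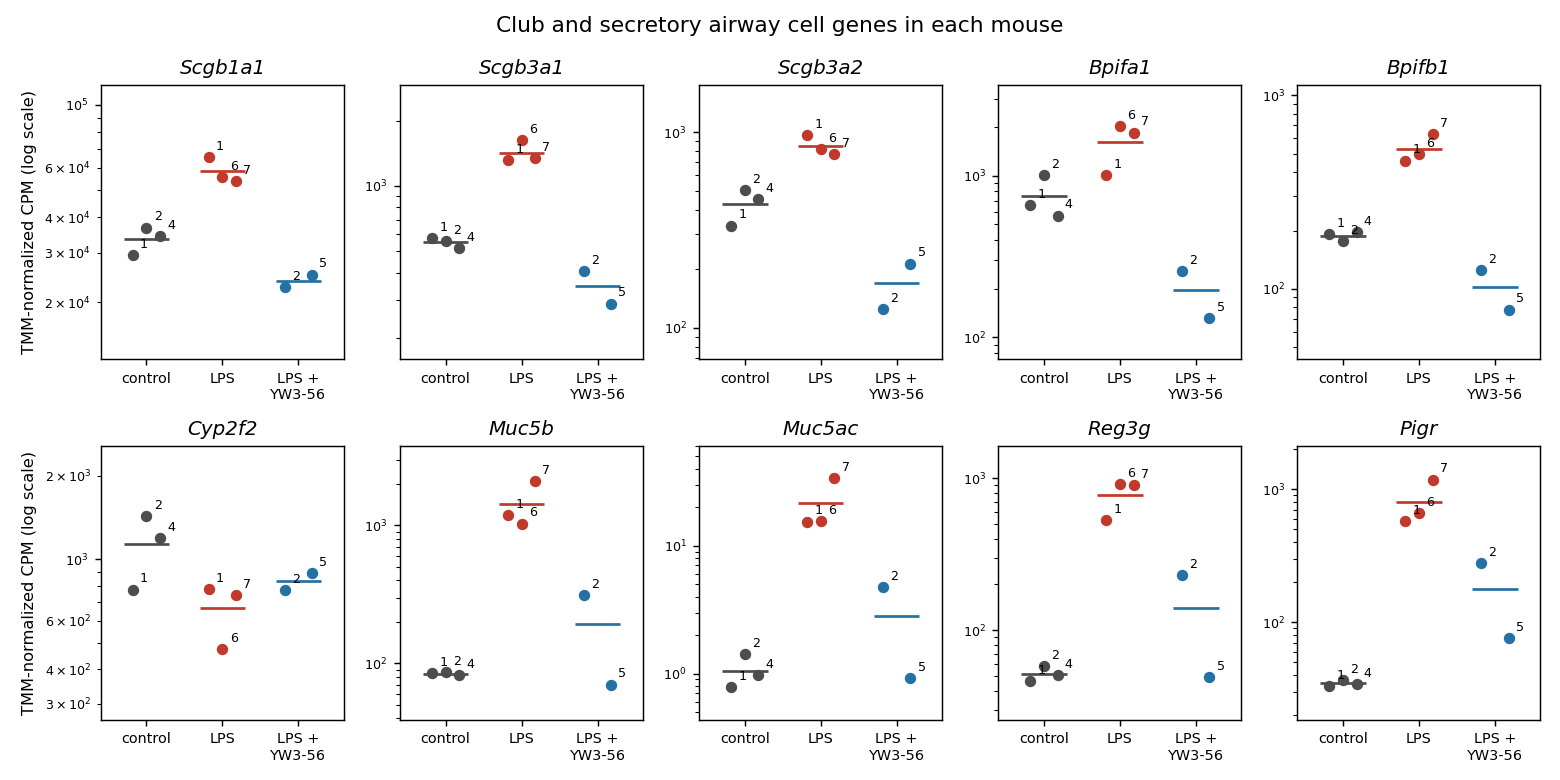
TMM-normalized CPM (log scale) of each of the 10 genes in each mouse, by group, with points for single mice and bars for group means. Scgb1a1 lies between 53700 and 65300 in LPS mice and between 22700 and 25100 in dual-treated mice.

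Scgb1a1, the secretoglobin that defines club cells and was long known as uteroglobin or CC10, was the most abundant of the 10 (ENSMUSG00000024653, GRCm39 chr19:9061000-9065326, minus strand). It had 29400, 36800 and 34400 CPM in control mice 1, 2 and 4. It had 65300, 55400 and 53700 CPM in LPS mice 1, 6 and 7, and 22700 and 25100 CPM in dual-treated mice 2 and 5. The groups did not overlap, with LPS mice highest and dual-treated mice lowest. This gene alone took 3.15% of all counts in control mouse 1 (95% exact Clopper-Pearson interval 3.15 to 3.16, counting error only), 5.29% in LPS mouse 1 and 2.51% in dual-treated mouse 2. It rose by a log2FC of 0.79 with LPS (standard error 0.185, adjusted p = 0.00405), a 1.73-fold change, which is below the fold of 2 that the study's own criterion asks for. Dual-treated lungs were 2.43-fold lower than LPS lungs, a log2FC of -1.28 (standard error 0.215, adjusted p = 0.000762). Against control the log2FC was -0.49 (standard error 0.209) and missed the threshold with an adjusted p of 0.145, although both dual-treated mice lay below every control mouse. It passed with DESeq2 (adjusted p = 0.00266), with the LPS libraries kept out of the fit (adjusted p = 0.0493) and without LPS mice 6 and 7 (adjusted p = 0.0468), and over all alternatives its adjusted p ran from 0.00266 to 0.392.

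Scgb3a1, a secretoglobin of larger airways and of mucous cells, moved further (ENSMUSG00000064057, chr11:49549630-49555945, plus strand). Its CPM was 575, 559 and 519 in control mice, 1310, 1620 and 1340 in LPS mice, and 406 and 288 in dual-treated mice, in the order of mouse numbers used above. Every LPS mouse was above and both dual-treated mice were below the narrow control range. The log2FC was 1.37 with LPS (standard error 0.153, adjusted p = 4.1e-05) and -2.03 in dual-treated against LPS lungs (standard error 0.182, adjusted p = 2.2e-05). Against control it fell by 0.67 on the log2 scale (standard error 0.172, adjusted p = 0.0286). That last call was lost when control mouse 1, 2 or 4 or dual-treated mouse 5 was left out, with a log2FC of -0.64, -0.66, -0.73 or -0.47, and its adjusted p ran from 0.000644 to 0.117 over all alternatives.

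Scgb3a2, a secretoglobin of bronchiolar club cells (ENSMUSG00000038791), had 333, 507 and 454 CPM in control mice and 966, 815 and 773 CPM in LPS mice. It had 125 and 213 CPM in dual-treated mice 2 and 5. The groups were again apart, and dual-treated mouse 2 was the lowest of all, unlike for Scgb3a1, where mouse 5 was. The gene rose 1.97-fold with LPS (log2FC 0.98, standard error 0.217, adjusted p = 0.00293), and with DESeq2 the log2FC was 1.02, so that the side of a 2-fold change on which it lies depends on the method. It was 5.05-fold lower in dual-treated than in LPS lungs (log2FC -2.335, standard error 0.264, adjusted p = 7.63e-05) and 2.56-fold lower than in control lungs (log2FC -1.355, standard error 0.252, adjusted p = 0.00701). Within each library, which no scaling between libraries can alter, there were 11.3, 13.8 and 13.2 Scgb3a2 counts for every 1000 Scgb1a1 counts in control mice and 14.8, 14.7 and 14.4 in LPS mice. In dual-treated mice there were 5.50 and 8.47, below every other library.

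Of 34 secretoglobin genes in the files, 27 had 0 counts in every library and 4 were tested. The tested gene outside the 10 was Scgb1c1, a secretoglobin known from the nasal and olfactory lining. Its log2FC with LPS was 0.46 and missed the threshold (adjusted p = 0.175). It fell by 1.96 on the log2 scale between LPS and dual-treated lungs (adjusted p = 0.00102), and the log2FC was -2.60 without dual-treated mouse 5.

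Cyp2f2, the cytochrome P450 that activates naphthalene in mouse club cells, went the other way from the secretoglobins with LPS (ENSMUSG00000052974, chr7:26819322-26833090, plus strand). Its CPM was 776, 1430 and 1190 in control mice, 782, 473 and 743 in LPS mice, and 771 and 893 in dual-treated mice. All groups overlapped, since control mouse 1 was as low as LPS mouse 1. The gene fell with LPS by 0.765 on the log2 scale (standard error 0.246, adjusted p = 0.0198). The call was lost without control mouse 2 (log2FC -0.56), control mouse 4 (-0.73) or LPS mouse 6 (-0.56), and without LPS mice 6 and 7 together (-0.53), and over all alternatives the adjusted p ran from 0.000309 to 0.18. Dual-treated lungs gave a log2FC of 0.32 against LPS (standard error 0.271, adjusted p = 0.33) and of -0.44 against control (standard error 0.276, adjusted p = 0.318), neither past the threshold. Per 1000 Scgb1a1 counts there were 26.4, 38.9 and 34.4 Cyp2f2 counts in control mice, 12, 8.53 and 13.8 in LPS mice, and 34.0 and 35.6 in dual-treated mice. On that ratio every LPS mouse lay below every other mouse, and the dual-treated mice lay within the control range. Of the exon bases of Cyp2f2, 682 overlap the antisense gene Gm15883, and the strand setting of the counting is not given in the sources used here, so reads of the pair cannot be told apart there. Gm15883 itself fell with LPS by 4.94 on the log2 scale (adjusted p = 1.43e-05) and rose from LPS to dual treatment by 5.35 (adjusted p = 2.3e-05), and its part in the values of Cyp2f2 was not tested.

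Bpifa1 and Bpifb1 encode secreted proteins of the BPI fold family, which coat the upper airways and act on bacteria and on the surface film. They lie on chromosome 2, 41598 bases apart with 1 gene, Bpifa5, between them. Bpifa1 (ENSMUSG00000027483, chr2:153984800-153991139, plus strand) had 660, 1010 and 567 CPM in control mice, 1010, 2030 and 1850 CPM in LPS mice, and 258 and 132 CPM in dual-treated mice. LPS mouse 1 was level with the highest control mouse, while both dual-treated mice were below all others. The rise with LPS (log2FC 1.13, standard error 0.331, adjusted p = 0.0128) was lost without control mouse 4 (log2FC 0.98) and fell to a log2FC of 0.45 without LPS mice 6 and 7, where its adjusted p was 0.362, the highest of a range from 4.9e-05 over all alternatives. The fall in dual-treated lungs was the larger effect, 8.38-fold against LPS (log2FC -3.07, standard error 0.418, adjusted p = 0.000226) and 3.82-fold against control (log2FC -1.94, standard error 0.394, adjusted p = 0.0107). Without LPS mice 6 and 7 the first of these was -2.39, and without dual-treated mouse 2 the pair became -3.66 and -2.52, all past the threshold.

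Bpifb1 (ENSMUSG00000027485, chr2:154032738-154062289, plus strand) had 192, 177 and 196 CPM in control mice, 460, 497 and 630 CPM in LPS mice, and 125 and 77.8 CPM in dual-treated mice. The groups did not overlap. It rose 2.81-fold with LPS (log2FC 1.49, standard error 0.183, adjusted p = 7.48e-05), and was 5.22-fold lower in dual-treated than in LPS lungs (log2FC -2.385, standard error 0.221, adjusted p = 2.62e-05). Against control it fell by 0.90 on the log2 scale (standard error 0.207, adjusted p = 0.0181). This call was lost without control mouse 1 or 4 or dual-treated mouse 5, with a log2FC of -0.88, -0.89 or -0.62, and its adjusted p ran from 0.000178 to 0.0614 over all alternatives. Of 15 genes of the BPI fold family in the files, 5 were tested, Bpifa1 and Bpifb1 among them. The counts below thus hold the changes of these 2 genes again. In dual-treated against LPS lungs 3 of them fell, where 27.4% of all tested genes fell. With LPS 4 of them rose, where 32.6% of all tested genes rose. Without LPS mice 6 and 7 only 4 could be tested and 2 rose. One of the 4 rises was that of Bpifc, which had 1, 21 and 37 counts in LPS mice 1, 6 and 7. Bpifb5 rose by a log2FC of 1.06 (adjusted p = 0.00228) and fell by 2.13 between LPS and dual-treated lungs (adjusted p = 0.000157).

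Muc5b, the gel-forming mucin of the healthy airway, and Muc5ac, the gel-forming mucin of goblet cells, are neighbours on chromosome 7, 19838 bases apart with 0 genes between them. Muc5b (ENSMUSG00000066108, chr7:141392807-141426821, plus strand) had 85.1, 86.7 and 81.9 CPM in control mice and 1190, 1030 and 2100 CPM in LPS mice. It had 314 CPM in dual-treated mouse 2 and 70.4 CPM in dual-treated mouse 5. LPS mice were far above all others, and the dual-treated mice fell on either side of the control range. Muc5b rose 17.0-fold with LPS (log2FC 4.09, standard error 0.509, adjusted p = 8.19e-05). It fell by 2.91 on the log2 scale from LPS to dual treatment (standard error 0.568, adjusted p = 0.00185), or by 4.38 without dual-treated mouse 2 and by 2.22 without mouse 5.

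Muc5ac (ENSMUSG00000037974, chr7:141342709-141372968, plus strand) was scarce, with 16, 30 and 21 counts in control mice, 260, 270 and 602 in LPS mice, and 104 and 21 in dual-treated mice 2 and 5. LPS mice were above all others, dual-treated mouse 2 stood between the groups, and dual-treated mouse 5 was at the control level. In control mouse 1 these counts were 8.39e-05% of the library, with an exact interval from 4.8e-05 to 0.000136. The log2FC with LPS was 4.35 (standard error 0.583, adjusted p = 0.000133). From LPS to dual treatment it was -2.935 (standard error 0.619, adjusted p = 0.00285), or -4.57 without dual-treated mouse 2 and -2.21 without mouse 5. Of the 5 gel-forming mucins tested, Muc5b and Muc5ac among them, 3 rose with LPS and 1 fell. Among all tested genes 32.6% rose and 33.9% fell. Muc2, the intestinal mucin, rose by a log2FC of 1.43 (adjusted p = 0.00643) and was lower in dual-treated than in LPS lungs, with a log2FC of -2.01 (adjusted p = 0.00325), or -2.73 without dual-treated mouse 5. Muc19, a mucin of glands, was the one that fell with LPS, with at most 25 counts in any library, and its call was lost without control mouse 4 (log2FC -1.67) or without LPS mice 6 and 7 (log2FC -2.13).

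Reg3g, a secreted C-type lectin that kills Gram-positive bacteria (ENSMUSG00000030017, chr6:78443246-78445859, minus strand), had 46.2, 58.1 and 50.6 CPM in control mice and 532, 913 and 903 CPM in LPS mice. Dual-treated mouse 2 had 230 CPM and mouse 5 had 49.1 CPM. Mouse 5 lay inside the control range and mouse 2 well above it, and both were below every LPS mouse. Reg3g rose 15.2-fold with LPS (log2FC 3.92, standard error 0.498, adjusted p = 9.3e-05) and was 5.61-fold lower in dual-treated than in LPS lungs (log2FC -2.49, standard error 0.546, adjusted p = 0.00356). Without dual-treated mouse 2 or mouse 5 the latter log2FC was -4.03 or -1.795. Of 7 genes of the Reg family in the files only Reg3g and Reg3d were tested. Reg3d, which had at most 15 counts in any library, rose with LPS by a log2FC of 2.87 (adjusted p = 0.0315), a call that was lost without any 1 of the 3 control mice (log2FC 3.03, 2.62 or 2.99) and without LPS mice 6 and 7 (log2FC 2.83).

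Pigr, the receptor that carries polymeric immunoglobulin A and M across the epithelium (ENSMUSG00000026417, chr1:130754397-130779986, plus strand), had 33.4, 36.7 and 34.4 CPM in control mice. It had 573, 665 and 1180 CPM in LPS mice, and 280 and 76.3 CPM in dual-treated mice 2 and 5. The groups did not overlap, and here both dual-treated mice stayed above the control mice. The log2FC was 4.53 with LPS (standard error 0.477, adjusted p = 2.79e-05), a 23.1-fold change. Dual-treated lungs were lower than LPS lungs, with a log2FC of -2.18 (standard error 0.499, adjusted p = 0.00443), which was -3.43 without dual-treated mouse 2 and -1.56 without mouse 5. They were higher than control lungs by 2.35 (standard error 0.463, adjusted p = 0.00935). Without dual-treated mouse 5 that difference was 2.97. Without mouse 2 it was 1.10 and lost its call (adjusted p = 0.0899), and its adjusted p ran from 5.91e-08 to 0.0899 over all alternatives.

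The dual-treated mice thus differed most for Muc5b, Muc5ac, Reg3g and Pigr, where mouse 2 was 4.46, 5.12, 4.68 and 3.66 times as high as mouse 5. For the secretoglobins, Cyp2f2 and the BPI fold genes the same ratio lay between 0.586 (Scgb3a2) and 1.95 (Bpifa1). Against control, the log2FC of the dual treatment was 1.19 for Muc5b (adjusted p = 0.14), 1.41 for Muc5ac (adjusted p = 0.167) and 1.43 for Reg3g (adjusted p = 0.0787), none past the threshold. Without mouse 2 they were -0.29, -0.22 and -0.10. Without mouse 5 they were 1.87 (adjusted p = 0.00406), 2.13 (adjusted p = 0.0186) and 2.13 (adjusted p = 0.00121), all past it, so that 1 mouse decided these values. Over all alternatives the adjusted p ran from 0.00406 to 0.703 for Muc5b, from 0.0186 to 0.892 for Muc5ac and from 0.000517 to 0.898 for Reg3g, and without a filter on low counts all 3 genes were called higher than in control.

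**Figure D2:**
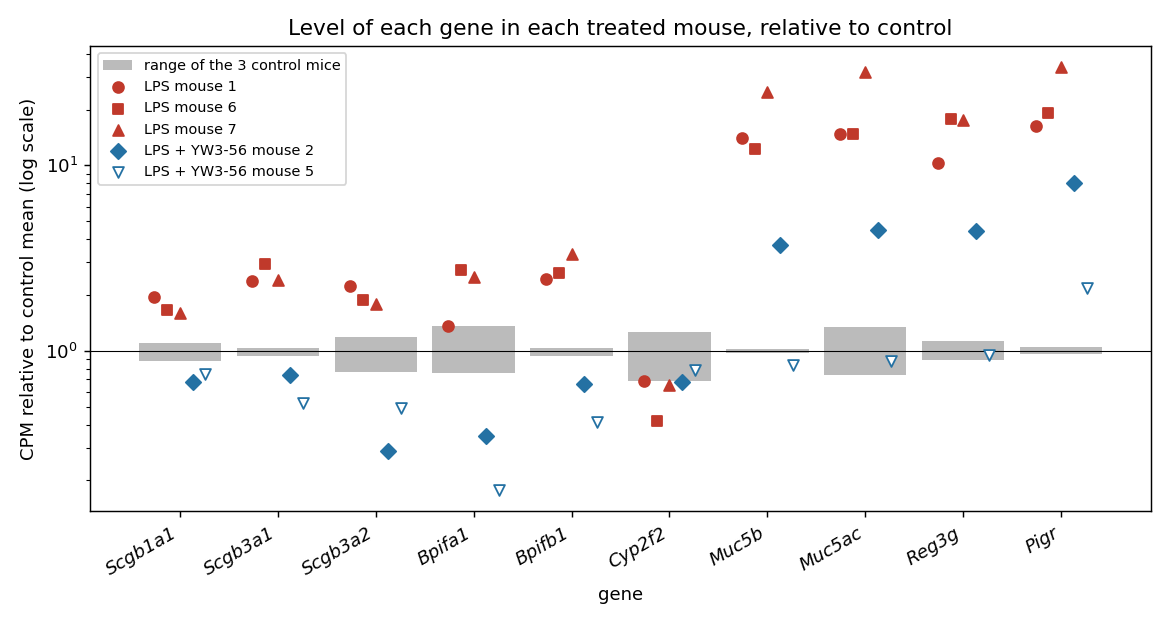
CPM of each gene in each LPS and dual-treated mouse, relative to the mean of the control mice (log scale), with the range of the 3 control mice as grey bars. For Muc5b, Muc5ac, Reg3g and Pigr dual-treated mouse 2 lies between 3.72 and 8.02 times the control mean, and mouse 5 between 0.833 and 2.19 times.

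Levels of different genes were compared as CPM per kilobase of exon. In control lungs Scgb1a1 stood first, with a mean of 69900 CPM per kilobase. Scgb3a2, Bpifa1, Cyp2f2 and Scgb3a1 followed with 485, 453, 340 and 307, and neighbours in that order overlapped between mice. Then came Bpifb1 with 43.3, Reg3g with 24, Pigr with 8.61 and Muc5b with 5.65, each apart from the next, and Muc5ac with 0.0979. In LPS lungs Scgb1a1 had 121000 CPM per kilobase, Bpifa1 994, Scgb3a2 956, Scgb3a1 793 and Reg3g 364. Bpifa1 overlapped Scgb3a2 and Scgb3a2 overlapped Scgb3a1, all above Reg3g. Cyp2f2, at 200, overlapped Pigr, at 199, whose highest mouse reached into the range of Reg3g. Bpifb1 followed with 121 and Muc5b with 96.3, and their ranges overlapped. The highest mouse of Bpifb1 also reached into the ranges of Cyp2f2 and Pigr. Muc5ac came last with 2. In dual-treated lungs Cyp2f2 was second after Scgb1a1, with 250 CPM per kilobase, and its range overlapped that of Scgb3a2 but lay above that of Scgb3a1. The 10 genes together took from 2.79% to 5.88% of all counts in a library.

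The likeness of other genes to a gene was measured as the root mean square difference of centred log2 CPM over the 8 libraries, among 15612 genes with a mean of at least 1 CPM. Closest to Scgb1a1 were Nfe2l2, the transcription factor NRF2 (0.0928), Klhl21, a ubiquitin ligase adaptor (0.0940), and Slc25a29, a mitochondrial carrier (0.114). Closest to Reg3g were the mitotic kinase gene Nek2 (0.269), the lipoxygenase gene Alox12e (0.284) and the serpin gene Serpina3c (0.297). Closest to Pigr were Orm2, an acute-phase glycoprotein (0.307), Selp, the adhesion molecule P-selectin (0.345), and Nek2 (0.384). With a prior count of 0.5 in place of 2, Orm2 ranked 3 and Nek2 ranked 4. Selp had 5.53, 4.83 and 5.24 CPM in control mice, 96.9, 82.1 and 96.1 CPM in LPS mice, and 38.6 and 7.60 CPM in dual-treated mice. For both Selp and Pigr both dual-treated mice lay between the control and the LPS mice. Selp was picked for its likeness to Pigr over these same libraries, so the shared order follows from that choice.

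Of 15 tested genes of a list of others enriched in club cells, 3 rose with LPS and 7 fell, with a median log2FC of -0.44, where 32.6% of all tested genes rose and 33.9% fell. With library size as the only scaling 2 rose and 9 fell, where 4336 of all 18560 tested genes rose and 7832 fell. Without control mouse 4 the median was -0.17, where that of all tested genes was -0.009. From LPS to dual treatment 4 rose and 3 fell, where 31.7% of all tested genes rose and 27.4% fell. Cyp4b1, a cytochrome P450, fell with LPS by 1.51 on the log2 scale (adjusted p = 1.18e-05) and stayed lower than control after the dual treatment by 0.84 (adjusted p = 0.00678). Fmo2, a flavin monooxygenase, fell with LPS by 2.56 (adjusted p = 7.86e-07) and rose from LPS to dual treatment by 2.07 (adjusted p = 6.62e-06). Lypd2, a small membrane-anchored protein, had the pattern of the secretoglobins, with log2FC of 0.72 with LPS (adjusted p = 0.0047), -2.04 from LPS to dual treatment (adjusted p = 4.78e-05) and -1.32 against control (adjusted p = 0.00287). Hp, which encodes haptoglobin, rose with LPS by 2.93 (adjusted p = 5.73e-06) and fell from LPS to dual treatment by 1.38 (adjusted p = 0.00141). It had 551, 813 and 908 CPM in control mice and 5910, 5590 and 5860 CPM in LPS mice, where it was the most abundant gene of the list. Cckar, a cholecystokinin receptor, fell with LPS (adjusted p = 0.0029) and rose from LPS to dual treatment by 1.75 (adjusted p = 0.00235).

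Of 14 tested goblet cell and mucus genes, 9 rose with LPS and 2 fell, where 32.6% of all tested genes rose and 33.9% fell. From LPS to dual treatment 8 fell and 1 rose, where 27.4% of all tested genes fell and 31.7% rose. Tff1, Tff3 and Gcnt3 had 0 counts in every library. Spdef, the transcription factor that drives goblet cell differentiation, had 43, 45 and 53 counts in control mice, 407, 357 and 394 in LPS mice, and 60 and 32 in dual-treated mice. Its groups of LPS and other mice were far apart, with a log2FC of 3.32 with LPS (adjusted p = 2.98e-06) and of -3.43 from LPS to dual treatment (adjusted p = 1.35e-05). Slc26a4, the anion exchanger pendrin, moved by 3.83 (adjusted p = 8.42e-06) and -3.995 (adjusted p = 3.81e-05) in the same comparisons. Unlike for Muc5b, both dual-treated mice were near control for these genes, with log2FC against control of -0.11 for Spdef (adjusted p = 0.836) and -0.17 for Slc26a4 (adjusted p = 0.813). Agr2, a disulfide isomerase of mucin folding, and Clca1, a secreted goblet cell protease, rose by 1.94 and 2.74 with LPS, but without LPS mice 6 and 7 their log2FC were 1.18 and 0.58 and no longer passed. Clca1 had 142, 277 and 1602 counts in LPS mice 1, 6 and 7, and without mouse 7 its log2FC was 1.12. Muc16, a membrane mucin, fell with LPS by 1.84 (adjusted p = 0.000489). Without LPS mice 6 and 7, a setting chosen for these lists after the data were seen, 6 goblet genes rose and 3 fell with LPS, and 2 rose from LPS to dual treatment.

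All 12 transcription factors and Notch receptors of airway secretory cells that were listed passed the test with LPS, 7 upward and 5 downward. Of all tested genes 32.6% rose and 33.9% fell. With library size as the only scaling 4 of the 12 rose and 5 fell, where 4336 of all 18560 tested genes rose and 7832 fell. Nkx2-1, the lineage factor of lung epithelium, fell by 2.38 on the log2 scale (adjusted p = 4.64e-07), and Foxa2, which restrains mucus production, by 1.77 (adjusted p = 1.39e-06). Foxa1, a close relative of Foxa2, went the other way, with a log2FC of 0.98 with LPS (adjusted p = 0.000128) and of -1.52 from LPS to dual treatment (adjusted p = 4.33e-05). The receptor gene Notch3 fell with LPS by 1.74 (adjusted p = 3.02e-06) and Grhl2, a Grainyhead factor, by 1.67 (adjusted p = 3.35e-06). Elf3, an epithelial ETS factor, rose by a log2FC of 2.32 (adjusted p = 5.54e-07) and Xbp1, a factor of the secretory pathway, by 1.27 (adjusted p = 5.24e-05). In dual-treated lungs Nkx2-1 was higher than in LPS lungs by 1.88 (adjusted p = 3.97e-06) and below control by a log2FC of -0.50 (adjusted p = 0.0166). This latter call was lost without control mouse 1 (-0.49) or 2 (-0.51) or dual-treated mouse 5 (-0.44). Elf3 was lower in dual-treated than in LPS lungs, with a log2FC of -2.50 (adjusted p = 2.4e-06), and its log2FC against control was -0.18 (adjusted p = 0.351). Foxa2 was still below control, with a log2FC of -0.82 (adjusted p = 0.00183).

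IL-17 and IL-22 are lymphocyte cytokines whose receptors on epithelium induce Reg3g, Pigr and mucin genes. Of 15 genes of their signalling 9 rose and 3 fell with LPS, where 32.6% of all tested genes rose and 33.9% fell. From LPS to dual treatment 9 fell and 1 rose, where 27.4% of all tested genes fell and 31.7% rose. In the latter comparison 3 of the 15 rose without LPS mouse 7, where 5696 of all 18267 tested genes rose. With library size as the only scaling 5 of the 15 rose, where 7889 of all 18560 tested genes rose. Il22 had 0, 0 and 0 counts in control mice, 749, 85 and 141 in LPS mice 1, 6 and 7, and 0 and 1 in dual-treated mice 2 and 5. Il17a had 0, 0 and 1 counts in control, 426, 36 and 41 in LPS and 2 and 0 in dual-treated mice. Il22, Il17a and Il17f, each with at most 2 counts in any library outside the LPS group, passed the filter on low counts only through that group. The part of these cytokines in the levels of Reg3g and Pigr was not tested. Nfkbiz, the coactivator IκBζ, rose by a log2FC of 3.00 with LPS (adjusted p = 1.74e-06) and was lower in dual-treated than in LPS lungs, with a log2FC of -2.41 (adjusted p = 2.19e-05). Stat3, the factor downstream of the IL-22 receptor, rose by 2.04 (adjusted p = 1.71e-06) and then fell by 1.87 (adjusted p = 1.19e-05).

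A list of genes of antibodies and of plasma cells was read as well, and its difference from Pigr was not tested. Of its 7 tested genes 1 rose and 2 fell with LPS, where 32.6% of all tested genes rose and 33.9% fell. The 1 that rose was Sdc1, which encodes no antibody chain (log2FC 0.55, adjusted p = 0.00135). Sdc1 was also among those that fell from LPS to dual treatment (log2FC -0.645, adjusted p = 0.00153). Igha, the heavy chain of immunoglobulin A, had 1876, 1772 and 1765 counts in control mice, 806, 1072 and 843 in LPS mice, and 511 and 415 in dual-treated mice. It fell with LPS by 0.71 (adjusted p = 0.00117) and further from LPS to dual treatment by 1.34 on the log2 scale (adjusted p = 0.000101). Jchain, which joins the polymers, had a log2FC of -0.59 with LPS (adjusted p = 0.431). That of Ighm was 0.59 (adjusted p = 0.485) and that of Igkc -0.51 (adjusted p = 0.521). From LPS to dual treatment 4 of the 7 genes rose and 2 fell, where 31.7% of all tested genes rose and 27.4% fell. Dual-treated mouse 2 was the highest library for each of Ighm, Igkc, Iglc1 and Mzb1. Without that mouse the log2FC of Ighm was -0.38 in place of 2.95, that of Igkc -0.31 in place of 2.69, that of Mzb1 1.75 in place of 3.64 and that of Iglc1 1.44 in place of 3.05, and all 4 calls were lost. Without LPS mice 6 and 7, 2 of the 7 genes rose.

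Among 19 tested genes of secreted defence, 17 rose with LPS, where 32.6% of all tested genes rose. Without LPS mouse 6 or mouse 7 alone 14 of them passed the filter on low counts and 12 rose. Some of the 17 rises are thus of genes that passed the filter only through these mice. From LPS to dual treatment 14 of them fell and 1 rose, where 27.4% of all tested genes fell and 31.7% rose. Lcn2, the iron-trapping lipocalin, rose by a log2FC of 6.57 (adjusted p = 4.56e-06), with 98533 counts in dual-treated mouse 2 and 27315 in mouse 5. Both were far above the control mice, with at most 3346, and below the LPS mice, with at least 181937. Ltf, which encodes lactoferrin, rose by 2.07 (adjusted p = 0.00157) and was lower in dual-treated than in LPS lungs, with a log2FC of -2.21 (adjusted p = 0.00337), or -3.13 without dual-treated mouse 2. Defb4, a beta-defensin, had 129 and 370 counts in LPS mice 6 and 7 and 0 in every other library. Without LPS mice 6 and 7, 14 genes of this list could be tested, of which 12 rose with LPS, and 9 fell and 0 rose from LPS to dual treatment. The 1 rise in that comparison, that of the lysozyme gene Lyz2 (log2FC 0.67, adjusted p = 0.0404), was also lost with RLE scaling (log2FC 0.62) and without any 1 control mouse, LPS mouse 6 or 7 alone or dual-treated mouse 5, with the lowest log2FC, 0.34, without LPS mice 6 and 7.

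Of 15 enzymes of foreign compound metabolism 9 fell and 4 rose with LPS, or 8 and 2 without LPS mice 6 and 7, where 33.9% of all tested genes fell and 32.6% rose. Cyp2f2 itself is among the 15 and among the 9 that fell, and the difference from all genes was not tested. Cyp1a1, induced through the aryl hydrocarbon receptor, fell by 7.08 on the log2 scale (adjusted p = 2.67e-06), with a log2FC of -7.89 without LPS mouse 7. It had 331, 750 and 801 counts in control mice, 2, 2 and 7 in LPS mice and 32 and 46 in dual-treated mice. Fmo1, a flavin monooxygenase, fell by 3.94 (adjusted p = 6.34e-07) and was higher by 2.79 in dual-treated than in LPS lungs (adjusted p = 7.73e-06). Por, the reductase that supplies electrons to Cyp2f2 and other P450 enzymes, rose by a log2FC of 2.11 (adjusted p = 1.6e-05), opposite to Cyp2f2 itself.

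Markers of neighbouring cell types were read beside these results, and their part in them was not tested. Among all tested genes 32.6% rose and 33.9% fell with LPS, and 27.4% fell and 31.7% rose from LPS to dual treatment. Those shares apply to every list of cell type markers below with TMM scaling and all mice. With library size as the only scaling, 4336 of all 18560 tested genes rose and 7832 fell with LPS. From LPS to dual treatment 7889 then rose and 3225 fell. Of 11 ciliated cell genes 6 rose and 4 fell with LPS, but with library size as the only scaling 0 rose and 4 fell, and without LPS mice 6 and 7, 3 rose and 1 fell. Leaving out control mouse 2 or LPS mouse 7 left 2 that fell. From LPS to dual treatment 6 fell and 1 rose, or 3 and 3 with library size as the only scaling, and without dual-treated mouse 2, 4 fell and 2 rose. Their summed level was 582, 699 and 707 CPM in control mice, 665, 630 and 797 CPM in LPS mice and 530 and 598 CPM in dual-treated mice. These ranges overlapped between control and LPS mice. Tppp3 was the most abundant of the list over all libraries, but in LPS mouse 7 it had 223 CPM and Foxj1 255 CPM. Foxj1, the master factor of motile cilia, rose by a log2FC of 0.72 (adjusted p = 0.00644) and was lower in dual-treated than in LPS lungs, with a log2FC of -1.02 (adjusted p = 0.00259). The rise was lost with library size as the only scaling (log2FC 0.45) and without LPS mice 6 and 7 (log2FC 0.45). Ccdc78, a gene of centriole formation, fell with LPS by 0.92 (adjusted p = 0.0022) and rose from LPS to dual treatment by 1.40 (adjusted p = 0.000398).

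Of 10 alveolar type 2 genes 8 fell and 1 rose with LPS, and of 8 type 1 genes 5 fell and 1 rose. Of all tested genes 33.9% fell and 32.6% rose. Etv5, a factor that maintains type 2 cells, fell by 3.22 (adjusted p = 5.54e-07), and Rtkn2, a type 1 marker, had a log2FC of -5.835 (adjusted p = 8.37e-08). The type 1 markers Ager and Hopx did not pass, with log2FC of -0.26 (adjusted p = 0.332) and -0.11 (adjusted p = 0.554), although both were called lower with library size as the only scaling (log2FC -0.56 and -0.41). Without LPS mice 6 and 7 the type 2 count was 4 down and 1 up. Of 10 genes shared by lung epithelia 6 rose and 4 fell, with Epcam, an epithelial adhesion molecule, up by a log2FC of 1.54 (adjusted p = 8.39e-06) and Krt19, a keratin, down by 1.61 on the log2 scale (adjusted p = 1.2e-05). Of these 10, 2 fell without LPS mouse 6 and 1 fell without LPS mice 6 and 7. From LPS to dual treatment 6 of them fell and 3 rose, or 1 rose without dual-treated mouse 5 or without LPS mice 6 and 7. In that comparison 27.4% of all tested genes fell and 31.7% rose. The log2FC there was -1.74 for Epcam (adjusted p = 2.1e-05) and 1.69 for Krt19 (adjusted p = 2.87e-05). Of the type 2 genes 5 rose and 0 fell there, or 1 fell without LPS mouse 7 or dual-treated mouse 2, and 4 type 1 genes rose and 2 fell, of which only 1 fell in most settings that left out 1 mouse.

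Of 8 basal cell genes 2 rose with LPS, where 32.6% of all tested genes rose. Krt5, a keratin of basal cells, had 2 counts in LPS mouse 1 and 298 and 422 in LPS mice 6 and 7. Without both of these mice 1 of 7 basal genes rose and 3 fell, without LPS mouse 1, 5 of the 8 rose, and without control mouse 1 or 4 or LPS mouse 6 or 7 only 1 rose. From LPS to dual treatment 4 basal genes fell and 0 rose, or 2 fell without LPS mouse 7 or either dual-treated mouse, and without LPS mice 6 and 7, 1 fell and 1 rose. Of 5 neuroendocrine genes 2 rose and 2 fell, or 1 rose without control mouse 1 or 2 or LPS mouse 6, and Calca, the gene of calcitonin and its related peptide, rose by a log2FC of 1.62 (adjusted p = 0.000423). Of 4 tested cartilage genes 1 rose with LPS, Col2a1, a collagen of cartilage, which had 0, 1 and 2 counts in control mice, 46, 34 and 29 in LPS mice and 2 and 1 in dual-treated mice. Acan, the aggrecan gene, had 0 counts in every library. All 8 neutrophil genes rose with LPS. After the dual treatment 7 of them were also higher than control, where 9.13% of all tested genes were. From LPS to dual treatment 4 rose and 1 fell, Ly6g, with a log2FC of -2.75. The median log2FC of the 8 genes in that comparison was 0.588, or 0.195 without dual-treated mouse 5. Their summed level was 2190, 3060 and 1910 CPM in LPS mice and 1800 and 2480 CPM in dual-treated mice, against 231, 128 and 134 CPM in control mice.

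**Figure D3:**
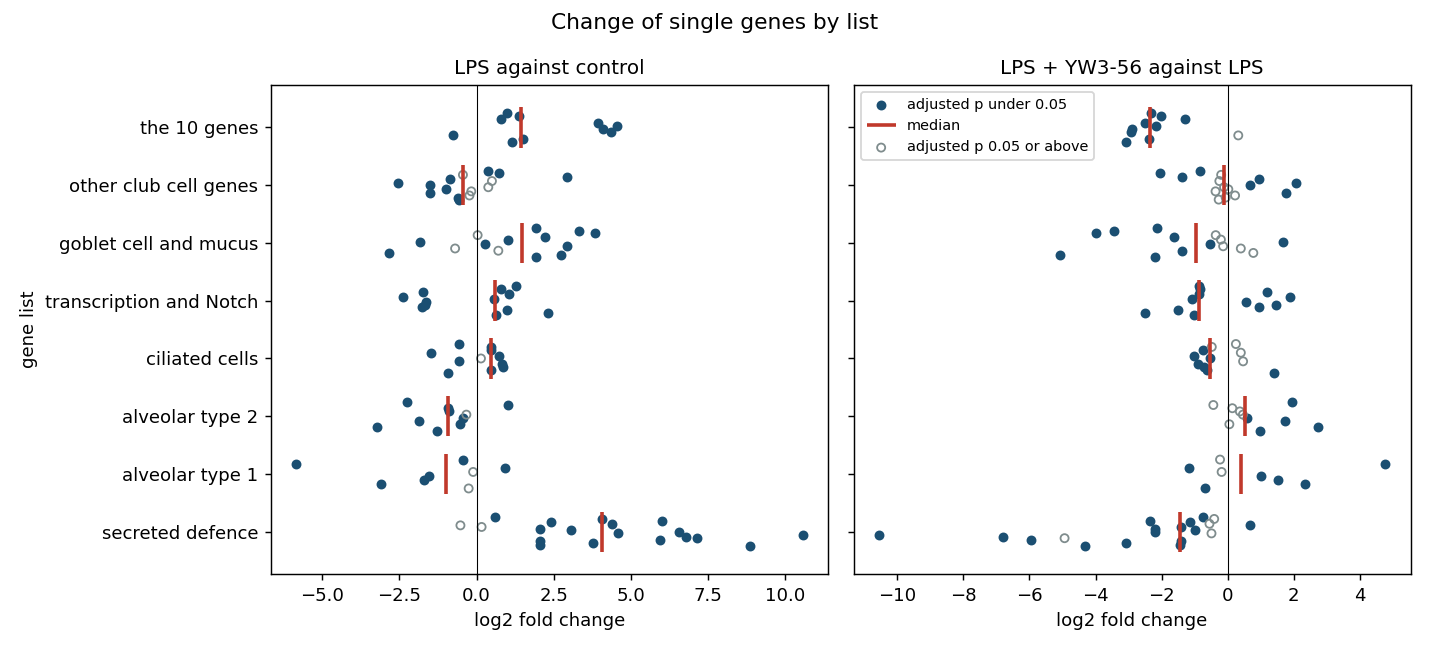
Log2FC of single tested genes by list, in LPS against control lungs (left) and dual-treated against LPS lungs (right), with filled points for an adjusted p under 0.05 and red bars for medians. The median of the 10 genes is 1.43 on the left and -2.36 on the right.

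Since several of the genes moved together, the bases around their starts were searched for short motifs. RefSeq promoters of build GRCm38.p6, which differs from the build of the counts, hold 250 bases before and 50 after a start, and 7 promoters of 6 of the genes were matched. Scgb1a1, Muc5b and Muc5ac were not matched, and Scgb3a2 was left out of the search by choice. On both strands the letters TTCNNNGAA of a STAT motif, GGGANTTTC of an NF-kB motif, TTGNNCAA of a C/EBP motif and TGTTTAC of a FOXA motif occur in 8.30%, 1.11%, 6.40% and 3.65% of all 32851 promoters. The STAT letters were found in promoters of Scgb3a1 and Pigr and in 1 of 2 promoters of Bpifb1 and the NF-kB letters in that of Reg3g, and the other pair in 0 of the 7. The promoters of Cyp2f2 and Bpifa1 and the other of Bpifb1 held 0 matches. A match describes the letters only. The promoters of Scgb3a1 (chr11:49663345-49663644, plus strand), Reg3g (chr6:78468825-78469124, minus strand) and Pigr (chr1:130826434-130826733, plus strand) show the matches in capitals, that of Reg3g as the letters of the other strand and that of Pigr within the 50 bases after the start.
Scgb3a1: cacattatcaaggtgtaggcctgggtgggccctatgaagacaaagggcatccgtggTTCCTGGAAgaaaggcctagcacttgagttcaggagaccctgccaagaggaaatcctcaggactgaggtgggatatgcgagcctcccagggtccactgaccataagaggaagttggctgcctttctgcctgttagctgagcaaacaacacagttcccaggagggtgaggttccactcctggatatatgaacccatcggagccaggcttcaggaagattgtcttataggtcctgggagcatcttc
Reg3g: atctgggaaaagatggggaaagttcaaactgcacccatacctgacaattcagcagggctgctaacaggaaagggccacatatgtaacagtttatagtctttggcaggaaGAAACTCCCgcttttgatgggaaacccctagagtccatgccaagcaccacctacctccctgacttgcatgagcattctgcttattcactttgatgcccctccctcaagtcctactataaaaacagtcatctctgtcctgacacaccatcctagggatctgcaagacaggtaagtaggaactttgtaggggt
Pigr: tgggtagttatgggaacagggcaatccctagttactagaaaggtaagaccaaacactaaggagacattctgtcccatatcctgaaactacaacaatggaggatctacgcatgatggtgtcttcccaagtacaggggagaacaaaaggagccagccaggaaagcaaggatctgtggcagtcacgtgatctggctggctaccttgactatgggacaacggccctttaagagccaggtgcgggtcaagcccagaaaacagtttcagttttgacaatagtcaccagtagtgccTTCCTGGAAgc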

How the data were processed

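The authors deposited raw counts per gene of 8 lung RNA-seq libraries. The submitters' processing notes name FastQC 0.11.9, Trim Galore, HISAT2 2.2.1, featureCounts 2.0.1 and GRCm39. Annotation release, strand setting and treatment of multiply mapped reads are not given in the sources used here. Symbols and coordinates came from GENCODE M39, which matched 54749 of 55416 identifiers, and the 667 others held 0.0533% of counts. The listed Pifo and Lor were not matched.

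In R 4.3.3, edgeR 4.0.16 (TMM, filterByExpr by group, quasi-likelihood test, 1 group factor, 5 residual degrees of freedom, Benjamini-Hochberg adjustment) was fitted to all 8 libraries and tested on simulated data. Standard errors came from the log2FC and its F statistic, and log2 CPM used a prior count of 2. TMM factors ran from 0.81 to 0.93 in LPS libraries and from 1.06 to 1.11 in the others. Alternatives were DESeq2 1.42.0, other scalings and filters, only the groups compared, the fold criterion of the study's methods and left-out mice. For the lists beside the 10 genes, other scalings and left-out mice were chosen after seeing the data. Intervals of shares are exact Clopper-Pearson 95% intervals and cover counting error only.

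The 10 genes and all lists were chosen with earlier results of these data known. Genes named from a list were taken from its first 2 and those among its 4 largest log2FC, in LPS against control or dual-treated against LPS lungs, that passed the test, had at least 1 CPM on average and did not overlap between groups. Not all that meet this rule are named, and those shown were picked with their values known. Outside the rule, Tff1, Tff3, Gcnt3, Muc16, Muc19, Xbp1, Reg3d, Defb4, Stat3, Ighm, Igkc, Sdc1, Tppp3, Bpifa5, Bpifc, Ivl, Lyz2 and Gm15883 were named.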

Additional observations from a re-analysis of the deposited data

How the results depend on the processing

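Over 16 alternatives and 480 values of single genes, 447 kept their direction and their side of the threshold, 19 lost a call, 11 gained one and 3 turned. Some of the 480 values could hardly move, since a left-out mouse was also scored in the comparison that lacks its group. The study's criterion reuses the main log2FC, so no direction could turn there. The 3 that turned were Muc5b (-0.29), Muc5ac (-0.22) and Reg3g (-0.10) in dual-treated against control lungs without dual-treated mouse 2. Without mouse 5 the same log2FC were 1.865, 2.13 and 2.13. Both settings leave 1 dual-treated mouse, which is assumed to vary like the other groups, as is LPS mouse 1 without LPS mice 6 and 7. In LPS against control lungs, 0 of the 10 genes fell by the study's criterion (fold change over 2, unadjusted p under 0.05, applied here to edgeR's values) or without LPS mice 6 and 7, and 0 to 1 when single mice were left out. In dual-treated against control lungs, 4 rose without a filter on low counts, 3 by the study's criterion and 0 to 4 without single mice, and 2 fell by the study's criterion and 2 to 4 without single mice. By that criterion 7 of the 10 rose with LPS, where 3401 of all 18560 tested genes rose and 4049 fell. In dual-treated against control lungs 1307 of all tested genes rose by it and 637 fell. Without the filter 1967 of 32006 genes rose there. The log2FC with LPS of Scgb1a1 (0.79) and Scgb3a2 (0.98) lay under the fold of the study's criterion, but with DESeq2 that of Scgb3a2 was 1.02 and over it. The criterion changes both the fold asked for and the adjustment, and these were not tested apart. The 9 falls from LPS to dual treatment passed in all 16 alternatives. With library size as the only scaling the median log2FC of all genes was -0.29 in LPS against control lungs, where that of Scgb1a1 was 0.50, and 0.38 in dual-treated against LPS lungs. Then 4336 genes rose and 7832 fell with LPS, in place of 6046 and 6300, and 7889 rose and 3225 fell from LPS to dual treatment, in place of 5875 and 5085. The calls of the 10 genes were the same with this scaling. No paired analysis was possible because no 2 groups share 2 or more replicate numbers. With 2 dual-treated mice, the differences of Muc5b, Muc5ac and Reg3g from control rest on single animals, and the low counts of Muc5ac in control lungs limit its precision.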
